A study of Mus musculus with 6 samples.

Results

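Distal AP-1 peaks were open chromatin regions of mouse intestinal crypts that lay more than 2 kb from any annotated transcription start site (TSS) and carried an AP-1 site at the summit. Crypts are the epithelial pits of the intestine in which stem cells and progenitors divide. Accessibility was read by ATAC-seq, in which the transposase Tn5 cuts and tags open DNA, and a peak is a stretch with an excess of tagged fragments over background. Of the 6 samples, 3 were wild-type (WT) and 3 were Arid3a conditional knockouts (cKO). Tamoxifen was injected on 3 consecutive days into all mice, and crypts were taken 1 month after the first injection. In the cKO, the Arid3a fl/fl alleles are deleted by VillinCre-ERT2, which acts in the intestinal epithelium and leaves stromal cells unchanged. WT mice were also given tamoxifen, and whether they carried the Cre was not given in the sources used here.

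The 6 peak lists were merged where peaks overlapped by at least 1 base, which gave 69957 consensus peaks on chromosomes 1 to 19. Of these, 46807 were distal and 4584 were distal AP-1 peaks, with TGACTCA or TGAGTCA inside the window of 100 bp on either side of the summit. The members were chosen by measured values only in so far as a peak had to be called in at least 1 list and the summit was that of the list in which the peak ranked highest by fold. Genotype did not enter the choice. The remaining 42223 distal peaks, which had no AP-1 site in the window, served for comparison. Of peaks within 2 kb of a TSS, 1087 of 23150 had an AP-1 site and were not members.

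AP-1 is a family of dimers of Fos, Jun and related proteins that bind the short palindrome-like element used here, which is named the TPA response element. The dimers are switched on by growth factors, stress and MAP kinase signalling, and many of their sites lie in enhancers far from promoters. In the intestinal epithelium AP-1 is known for its part in proliferation and in the response to injury. ARID3A, the factor deleted here, binds DNA rich in A and T. The study asked whether losing it alters which chromatin is open, and at which factor motifs.

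The windows below show what an AP-1 site looks like in peaks that ranked high in every sample. Each covers the summit and the 100 bp on either side of it, on the plus strand of GRCm38, with the AP-1 site in capitals. The peak near Eif2ak3, the gene of the PERK kinase of the unfolded protein response, lay in an intron (chr6:70872363-70872563) and had its site centred 0 bp from the summit. The peak nearest to the pseudogene Gm13624 (chr2:69802941-69803141) lay between genes, 12.1 kb from the TSS of Phospho2, with its site 89 bp before the summit. The peak nearest to the pseudogene Gm12034 (chr11:20477453-20477653) lay between genes, 65.7 kb from the TSS of Sertad2, with its site 72 bp after the summit.
Eif2ak3: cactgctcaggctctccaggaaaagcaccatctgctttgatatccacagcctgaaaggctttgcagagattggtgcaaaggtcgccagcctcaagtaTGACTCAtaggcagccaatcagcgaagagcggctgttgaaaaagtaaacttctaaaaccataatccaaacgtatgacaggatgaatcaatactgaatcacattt
Gm13624: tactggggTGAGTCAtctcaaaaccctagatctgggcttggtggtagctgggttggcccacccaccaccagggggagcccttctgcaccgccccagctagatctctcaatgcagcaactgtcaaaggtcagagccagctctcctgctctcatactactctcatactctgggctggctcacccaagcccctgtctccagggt
Gm12034: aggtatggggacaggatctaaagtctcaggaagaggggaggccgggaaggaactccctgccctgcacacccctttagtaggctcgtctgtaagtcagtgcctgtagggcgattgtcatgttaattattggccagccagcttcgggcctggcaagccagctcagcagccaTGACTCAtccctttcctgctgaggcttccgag

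The next windows belong to the peaks with the largest differences in normal score of rank, described further on, among those whose genotypes did not overlap. The first pair ranked higher in cKO and the second pair lower. The peak nearest to the antisense gene Gm16180 (chr8:3234628-3234828) lay in an intron, and the nearest protein-coding TSS was that of Insr, the insulin receptor, at 42.0 kb. The peak nearest to the pseudogene Gm42453 (chr5:15846884-15847084) lay between genes. The Cdh1 peak (chr8:106616056-106616256) lay in an intron, 12.01 kb from the TSS of this gene of E-cadherin, and held 2 sites. The Casz1 peak (chr4:148791052-148791252) lay between genes, 13.3 kb from the TSS of this zinc finger factor.
Gm16180: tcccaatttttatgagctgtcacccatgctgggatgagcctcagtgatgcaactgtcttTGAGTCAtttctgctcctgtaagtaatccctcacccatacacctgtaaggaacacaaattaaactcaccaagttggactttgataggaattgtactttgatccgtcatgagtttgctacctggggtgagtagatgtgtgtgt
Gm42453: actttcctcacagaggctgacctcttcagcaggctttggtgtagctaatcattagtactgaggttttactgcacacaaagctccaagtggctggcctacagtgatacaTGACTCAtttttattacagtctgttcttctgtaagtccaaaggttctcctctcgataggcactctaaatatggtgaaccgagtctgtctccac
Cdh1: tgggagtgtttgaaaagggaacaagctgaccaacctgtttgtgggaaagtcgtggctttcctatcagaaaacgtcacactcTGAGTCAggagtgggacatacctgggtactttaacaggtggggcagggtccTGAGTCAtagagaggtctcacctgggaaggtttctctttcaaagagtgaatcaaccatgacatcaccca
Casz1: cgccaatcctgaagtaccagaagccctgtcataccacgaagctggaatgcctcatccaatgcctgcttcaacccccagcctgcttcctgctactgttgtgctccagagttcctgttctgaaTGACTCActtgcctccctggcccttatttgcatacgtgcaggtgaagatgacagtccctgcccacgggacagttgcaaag

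A further set shows a peak called in all cKO and no WT samples (nearest to 1700034P13Rik, chr1:9780347-9780547), a peak called in all WT and no cKO samples (nearest to Gm8326, chr1:46408773-46408973) and the peak with the most sites (near Twsg1, chr17:65961588-65961788). The last 2 windows lie near genes of the AP-1 and stem cell lists. One is near Jdp2 (chr12:85569822-85570022), whose product dimerises with Jun proteins and represses AP-1, and the other near Axin2 (chr11:108898248-108898448), a feedback inhibitor of WNT signalling. The Gm8326 window held 2 sites. The Twsg1 window held 6 sites in a tandem array of a short repeat unit.
1700034P13Rik: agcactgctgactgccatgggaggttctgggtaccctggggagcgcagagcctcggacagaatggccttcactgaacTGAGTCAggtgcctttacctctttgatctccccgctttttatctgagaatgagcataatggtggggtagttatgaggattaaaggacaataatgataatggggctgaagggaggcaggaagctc
Gm8326: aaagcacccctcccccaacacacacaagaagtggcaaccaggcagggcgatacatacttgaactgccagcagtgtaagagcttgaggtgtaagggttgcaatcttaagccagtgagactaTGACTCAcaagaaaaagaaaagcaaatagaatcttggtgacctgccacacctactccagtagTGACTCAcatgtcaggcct
Twsg1: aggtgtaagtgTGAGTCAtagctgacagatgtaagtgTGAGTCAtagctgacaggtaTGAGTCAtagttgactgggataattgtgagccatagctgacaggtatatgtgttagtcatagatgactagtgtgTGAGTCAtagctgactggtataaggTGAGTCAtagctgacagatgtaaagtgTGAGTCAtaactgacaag
Jdp2: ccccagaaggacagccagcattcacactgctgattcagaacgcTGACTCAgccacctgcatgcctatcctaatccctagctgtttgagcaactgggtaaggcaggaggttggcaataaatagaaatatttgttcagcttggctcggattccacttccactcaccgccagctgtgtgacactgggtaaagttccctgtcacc
Axin2: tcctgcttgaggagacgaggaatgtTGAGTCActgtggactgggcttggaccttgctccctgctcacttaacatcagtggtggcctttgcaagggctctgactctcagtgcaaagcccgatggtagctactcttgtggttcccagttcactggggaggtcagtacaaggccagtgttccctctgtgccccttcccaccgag

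AP-1 sites were concentrated at the summits of distal peaks. Of the 46807 distal windows, 9.79% held a site, against 3.57% and 3.59% of windows of the same length 1000 bp before and after the same summits. The same letters in another order (TCAGTCA, sought on both strands) occurred in 4.02% of distal summit windows and in 3.36% and 3.42% of the windows 1000 bp away. The site itself occurred in 4.70% of summit windows within 2 kb of a TSS and in 8.11% of all consensus windows. Within 25 bp of distal summits the density was 0.581 sites per kb, 3.16 times the 0.184 sites per kb beyond 500 bp. The corresponding ratio was 1.25 for the reordered letters and 1.84 for AP-1 sites at peaks near a TSS.

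**Figure D1:**
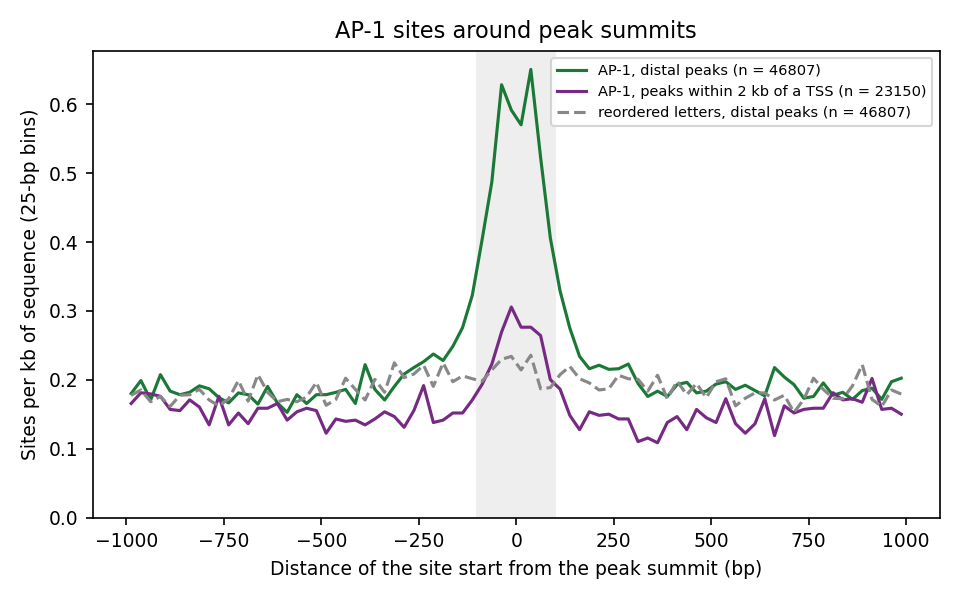
Density of sites (sites per kb, 25-bp bins, y axis) by distance from the peak summit (bp, x axis) for AP-1 sites in distal peaks and in peaks within 2 kb of a TSS, and for the reordered letters in distal peaks; grey marks the 100 bp on either side of the summit used to choose members. The distal AP-1 line rises to 0.650 sites per kb near the summit and falls to the level of the reordered letters further out.

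Most distal AP-1 peaks held a single site. There were 4290 peaks with 1 site, 272 with 2 and 22 with 3 or more, and the highest number was 6. The 4909 sites made up 1.24% of the 396904 AP-1 sites on the chromosomes used. The median distance between a site's centre and the summit was 43 bp, and in 1367 members (29.8%) the nearest site lay within 25 bp. Sites in members lay wholly inside soft-masked repeats less often than sites of the genome did, 6.95% against 14.99%.

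The bases next to the site were not those of the average genomic site. Read on the strand that spells TGACTCA, the base before the site was T in 8.82% of sites in members and in 19.3% of all genomic sites, and G in 35.1% against 24.5%. The base after the site was A in 10.3% against 23.0%, and C in 28.4% against 20.3%. The site extended to ATGACTCAT or ATGAGTCAT, a form with an A and a T at its ends, occurred in 423 members. The form with GC in front (GCTGACTCA or GCTGAGTCA), which large MAF proteins also bind, occurred in 777 members (17.0%).

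Distal AP-1 peaks lay where other distal peaks lay. Their summits fell in introns in 2381 cases (51.9%) and between genes in 2033 (44.4%), with 67 in UTRs, 58 in non-coding exons and 45 in coding exons. Among other distal peaks 51.8% were intronic and 42.9% lay between genes. The median distance to the nearest TSS was 11.01 kb in members and 10.9 kb in other distal peaks. The A+T content of the window was 51.5% ± 6.30 (SD over 4584 peaks) in members and 50.9% ± 6.98 in the others. At the limits of the rule, the member closest to a TSS lay at 2003 bp and the nearest excluded peak with a site at 1995 bp. These were a peak near Pla2g10os with folds of 3.69 in WT 1 and 3.25 in cKO 3, and a peak near Gna11 with a fold of 2.82 in cKO 2. In 29 members the nearest site touched the edge of the window, and 19 distal peaks had their nearest site 1 bp outside it.

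Other factor motifs were about as common beside AP-1 sites as in other distal peaks. With the AP-1 site itself masked, AGATAA, the GATA motif, was present in 16.4% of members and 15.7% of other distal peaks, ATCAAA or ATTAAA, the ARID3 motif, in 19.3% and 19.5%, and TTTATTG or TTTATGG, the CDX motif, in 10.5% of both. CAAAGTCCA or CAAAGTTCA, the motif of the enterocyte regulator HNF4, was present in 2.81% (95% Wilson interval 2.37% to 3.33%) and 3.10%. CATTCCA or CATTCCT, the motif of the YAP partner TEAD, was present in 9.73% and 9.61%, and in 10.7% of members without masking. All motifs were sought on both strands without mismatches, and a match is no measure of binding.

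The largest relative deficit in the members was for part of the insulator motif of CTCF (AGGGGGC or AGATGGC), with 6.39% (5.72% to 7.14%) against 9.22%. CAGCTG, the E-box of bHLH factors such as ASCL2, was present in 12.9% against 14.8%. Masking removes matches that overlap the AP-1 site, and so lowers the share in members only. Without masking, the E-box was present in 14.3% of members, so most of its deficit came from the masking. GGGANTTCC or GGANTTTCC, the NF-kB motif, was present in 2.596% (2.17% to 3.10%) against 2.26%. Over the whole consensus peak, the ratio of the share in members to that in other distal peaks was 0.855 for CTCF and 0.980 for the E-box, against 0.693 and 0.872 in the window. For ARID3 and KLF, the motif of Kruppel-like factors, the direction depended on the region searched. Their ratios were 0.989 and 0.933 in the window and 1.06 and 1.05 over the whole peak.

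The lists differed in length, and read totals were not analysed here, so depth was judged from the lists alone. They touched 38253 consensus peaks in WT 1, 47819 in WT 2, 52474 in WT 3, 56463 in cKO 1, 43860 in cKO 2 and 49859 in cKO 3. The promoter of Arid3a had a peak in 3 of 3 samples of both genotypes, so the peak lists did not separate the genotypes at this gene. Of 10 epithelial identity genes 9 to 10 had a promoter peak in each sample, of 18 immune genes 0 to 2 and of 17 stromal and endothelial genes 4 to 7. Ptprc and other defining immune genes were among the 16 immune genes without a promoter peak in any sample. The crypt cells were not sorted, and a lower peak in a bulk library cannot be told apart from fewer cells that carry it.

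Distal AP-1 peaks were called in more samples than other distal peaks. Of the 4584 members, 2003 (43.7%) were called in all 6 samples, against 34.3% of other distal peaks, and 855 (18.7%) in 1 sample only, against 26.2%. The number called was 2469, 3295 and 3537 in WT 1, 2 and 3, with 3688, 2751 and 3214 in cKO 1, 2 and 3. In every sample the members ranked higher by fold than other distal peaks. The median fold of members was 4.98, 6.13 and 6.02 in WT 1, 2 and 3, with 6.05, 5.68 and 5.79 in cKO 1, 2 and 3. The median fold of other distal peaks was 4.61, 5.46 and 5.38 in WT and 5.61, 5.18 and 5.38 in cKO.

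AP-1 peaks made up a smaller share of the distal peaks in each cKO list than in each WT list. The share was 11.6%, 11.4% and 10.8% in WT 1, 2 and 3, with 10.3%, 10.7% and 10.5% in cKO 1, 2 and 3. The mean was 11.3% ± 0.407 (SD, n = 3) in WT and 10.5% ± 0.237 in cKO, and the 2 groups of samples did not overlap. The 95% Wilson interval of WT 3 (10.5% to 11.2%) nevertheless overlapped those of cKO 1 (9.96% to 10.6%), cKO 2 (10.4% to 11.13%) and cKO 3 (10.1% to 10.8%). That of WT 2 (11.07% to 11.8%) also overlapped that of cKO 2. The shortest list had the highest share and the longest the lowest. With all lists cut to equal length the difference between the means was -0.59 percentage points, against -0.79 with the lists as deposited.

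Few members were called in all samples of a genotype and none of the other. There were 12 members called in each of the 3 cKO samples and in 0 of the 3 WT samples (0.262%), against 0.462% of all consensus peaks and 0.613% of other distal peaks. In the other direction there were 11 members (0.240%), against 0.113% of all consensus peaks and 0.126% of other distal peaks. When at least 2 of 3 samples sufficed, 122 members (2.66%) were called in cKO and in no WT sample, against 3.33% of all peaks. The reverse held for 106 members (2.31%), against 1.25% of all peaks. Members therefore fell below the background among cKO-only peaks and above it among WT-only peaks under both definitions, and in 6 of 6 sets that left out 1 library. Fewer samples then have to agree, and the cKO-only count was 14 to 96 (most without cKO 2) and the WT-only count 14 to 81 (most without WT 1).

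Members called in 1 genotype only ranked in the lower part or the middle of their lists. The mean percentile within the list had a median of 30.0 over the 12 cKO-only members, with single values from 1.33 to 61.1, and of 21.2 over the 11 WT-only members, with values from 1.17 to 58.0. The 5 named of each had the highest lowest percentile over the samples in which they were called. The peak nearest to the antisense gene 1700034P13Rik had its summit 17.7 kb from the TSS of the kinase gene Sgk3. Its fold was 7.30, 4.97 and 5.35 in cKO 1, 2 and 3. Near Srsf6, which encodes a splicing factor, the fold was 6.50, 5.19 and 4.81. The other named cKO-only members lay nearest to Gm26485, Cacna2d4 and Cntrobos, and within its own list each of these peaks ranked between the 22.3 and 55.1 percentile by fold. Of the WT-only members, the peak near Gm8326 had folds of 5.15, 6.16 and 6.64 in WT 1, 2 and 3. The peak in an intron of Oxr1, a gene of protection from oxidation, held 3 sites and had folds of 4.51, 7.02 and 4.98. The others lay nearest to Sytl2, Slc27a6 and Gm44028.

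Rank shifts were compared over the 32147 consensus peaks called in all 6 samples, of which 2003 were members. The fold of each peak was turned into a percentile within the sample over these peaks, with 0 the lowest. In members the median percentile was 42.0, 45.4 and 44.3 in WT 1, 2 and 3, with 41.6, 41.3 and 43.9 in cKO 1, 2 and 3. In the 14493 other distal peaks it was 35.9, 36.5 and 37.4 in WT and 40.7, 36.6 and 40.3 in cKO. The members thus ranked above other distal peaks by 6.04, 8.92 and 6.98 points in WT 1, 2 and 3, but by 0.871, 4.63 and 3.65 points in cKO 1, 2 and 3. The mean lead was 7.31 ± 1.47 points in WT and 3.05 ± 1.95 in cKO (SD, n = 3), a difference of -4.26, and the 2 groups did not overlap.

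**Figure D2:**
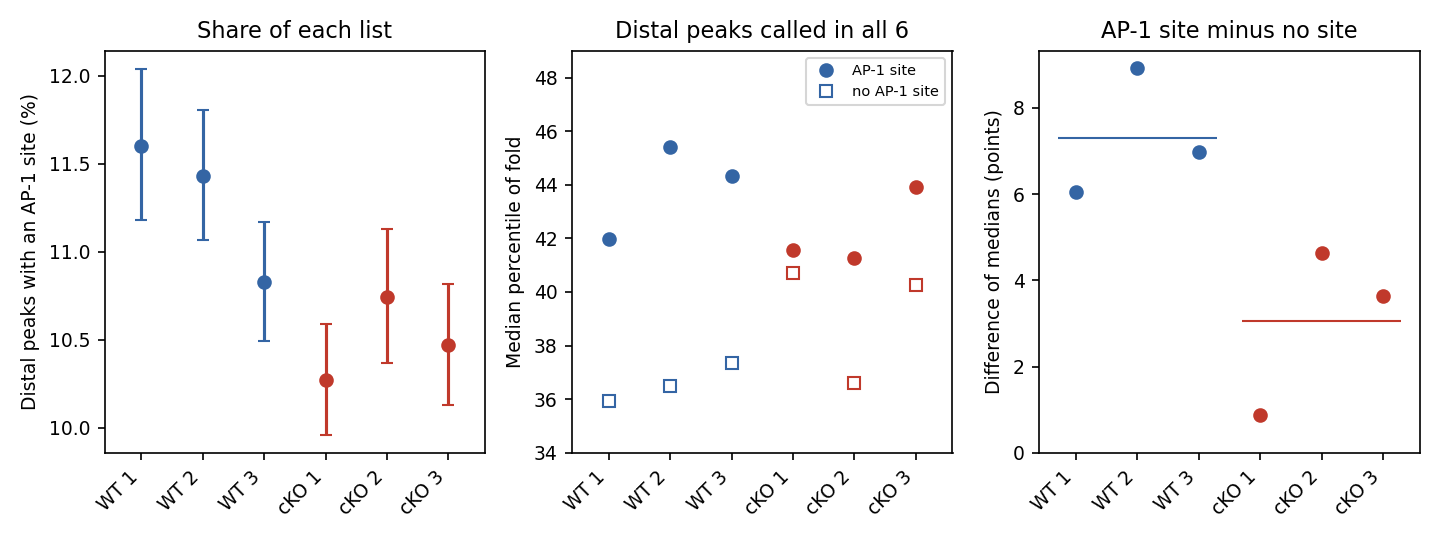
Values by sample, WT blue and cKO red: left, share of distal peaks with an AP-1 site (%, bars are 95% Wilson intervals); middle, median percentile of fold in distal peaks with a site (filled circles) and without (open squares), over peaks called in all 6 samples; right, the difference of the 2 medians in percentile points, with the group mean as a line. The 3 cKO samples sit below the 3 WT samples in the left and right panels, and the axes of the left and middle panels do not start at 0.

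Both medians behind the lead differed in their means. The median percentile of members was 43.9 ± 1.76 in WT and 42.2 ± 1.44 in cKO, and that of other distal peaks was 36.6 ± 0.713 and 39.2 ± 2.24. The groups overlapped in each of these measures, whereas they did not in the lead of members over other distal peaks. Peaks near a TSS also separated the groups by this measure. Those with an AP-1 site ranked below those without it by 17.1 points in WT and 19.9 in cKO, and their own median percentile was 51.5 ± 1.07 in WT and 45.3 ± 2.05 in cKO, both without overlap. The first of these separations was narrow, with a difference of -18.58 points in WT 1 and -18.70 in cKO 1. With the percentiles computed over distal peaks alone the lead was 9.31 points in WT and 3.76 in cKO, and with peaks ranked by q it was 8.78 and 5.63. Without overlap the lead was lower in cKO in both cases. When peaks called in at least 4 samples were used the means were 6.99 and 3.80, and cKO 2 (4.80) then lay above WT 1 (4.51). The groups stayed separate in 6 of 6 sets that left out 1 library. The percentiles over at least 4 samples used only the samples in which a peak was called.

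Peak by peak, the mean percentile in cKO minus that in WT had a median of -1.28 over members (quartiles -7.48 and 5.27), and 56.2% of members were lower in cKO. Over other distal peaks the median was 1.31 (quartiles -4.56 and 8.52) and 43.8% were lower. Over all peaks called in all 6 samples the median was -0.64 and 53.8% were lower, a share close to that of members. Percentiles are relative, so a rise of other distal peaks lowers the rest. In peaks near a TSS the median was -2.003 without regard to the site (62.8% lower) and -3.31 with an AP-1 site (67.2% lower).

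**Figure D3:**
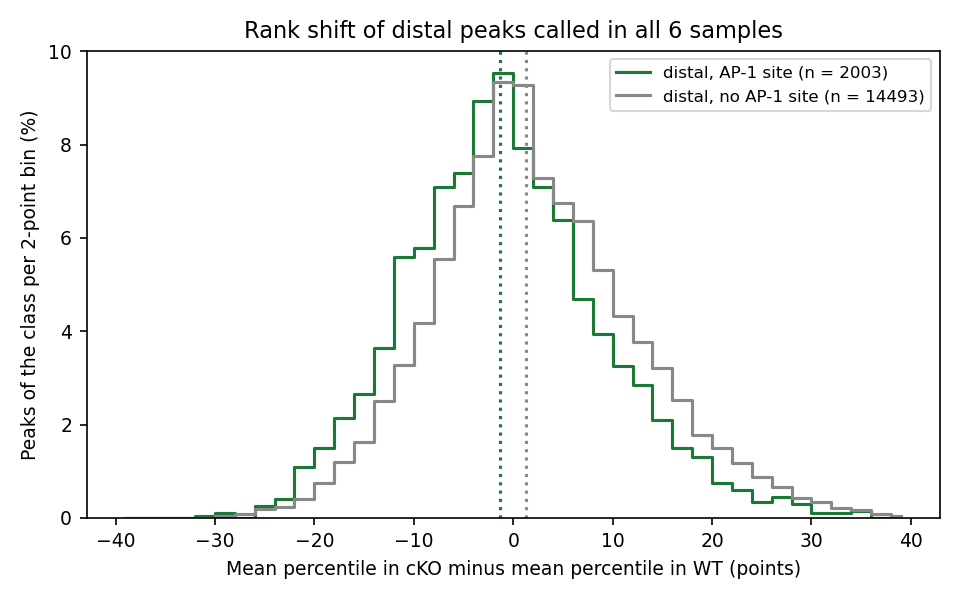
Distribution of the rank shift (mean percentile in cKO minus that in WT, x axis, in points) over 2003 distal peaks with an AP-1 site and 14493 without, as the percent of each class per 2-point bin (y axis); dotted lines mark the medians. The 2 distributions overlap broadly, with medians of -1.28 and 1.31.

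No single peak passed the test. In limma on normal scores of fold, 0 members and 0 of the 32147 peaks had an adjusted p under 0.05, which is 0% of the peaks tested. At an unadjusted p under 0.05, limma placed 80 members (3.99%) higher in cKO, against 4.86% of all peaks, and 55 (2.75%) lower, against 2.43%. Among other distal peaks these shares were 6.77% and 1.58%. In 85 members (4.24%) all 3 cKO percentiles lay above all 3 WT percentiles, against 5.87% of all peaks and 8.03% of other distal peaks. In 164 members (8.19%) they lay all below, against 6.09% of all peaks and 4.57% of other distal peaks. The split depended on the criterion, since 40.7% of the members at an unadjusted p under 0.05 and 65.9% of those that did not overlap were lower in cKO. Ranked by q, these shares were 77.8% and 73.3%, and ranked over distal peaks alone 65.4% and 72.7%. Without cKO 2 the share of members all below was 20.7%, under the 23.6% of all peaks and above the 14.2% of other distal peaks, and in the other 5 sets that left out 1 library it exceeded both. For 1 peak, the exact permutation test of 3 against 3 samples cannot give a p below 0.1.

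Members with a pair of sites had a lower median shift than members with a single site. The median shift was -1.18 in 1852 members with 1 site and -3.61 in 137 with 2 sites, of which 64.2% were lower in cKO. In 14 members with 3 or more sites it was -0.12. The distance of the site from the summit made little difference to the median shift, which was -1.35, -1.17 and -1.48 for sites within 25 bp, at 26 to 50 bp and further out. The share of members all below in cKO fell in the same order, at 10.4%, 8.10% and 6.71%, against 6.09% of all peaks. The share all above was 4.05%, 4.44% and 4.22%, against 5.87% of all peaks. The median was -0.23 in the 198 members whose site had A and T at its ends and -1.77 in the 355 with the MAF-type site. All of these are descriptions over peaks of the same 6 samples.

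The lower median of members was present at each level of fold and base composition examined. In each of 4 bins of mean percentile and 5 bins of A+T content, the median shift of members was below that of other distal peaks, in 9 of 9 strata. Between the 25 and 50 percentile it was -2.94 in members and 2.69 in other distal peaks, and between the 75 and 100 percentile 0.35 and 1.74. In windows with under 40% A+T it was -5.18 (92 members) and -0.31, and in windows with over 55% A+T -0.36 and 2.61. Members at A+T-rich sequence thus had a median shift nearer to 0 than members at G+C-rich sequence.

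Distal AP-1 peaks stood near the low end when distal peaks were ordered by motif. Of 18 motif classes of distal peaks without an AP-1 site, 15 had a median shift above 0. The highest was that of HNF4, at 2.45 over 618 peaks, with ARID3 at 2.27 over 2658 peaks and the reordered AP-1 letters at 2.34 over 548. The classes below 0 were KLF at -0.38, NF-kB at -1.20 and TGACGTCA, the cAMP response element that ATF and CREB proteins bind, at -1.95 over 71 peaks. The last was the only class below the -1.28 of AP-1 peaks. Inside the members, those that also held an ARID3 motif had a median of 0.37 (380 peaks) and those without it -1.55. This was not particular to ARID3. Members with CTTTGAT, the TCF motif, which holds the ARID3 word ATCAAA on its other strand, had 0.79 (106 peaks). For 9 of 17 co-occurring motifs, members with the motif had a higher median than members without it. Members with an HNF4 motif had -0.27 (67 peaks), members with a KLF motif -2.72 (183 peaks) and members with an NF-kB motif -4.32 (58 peaks).

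**Figure D4:**
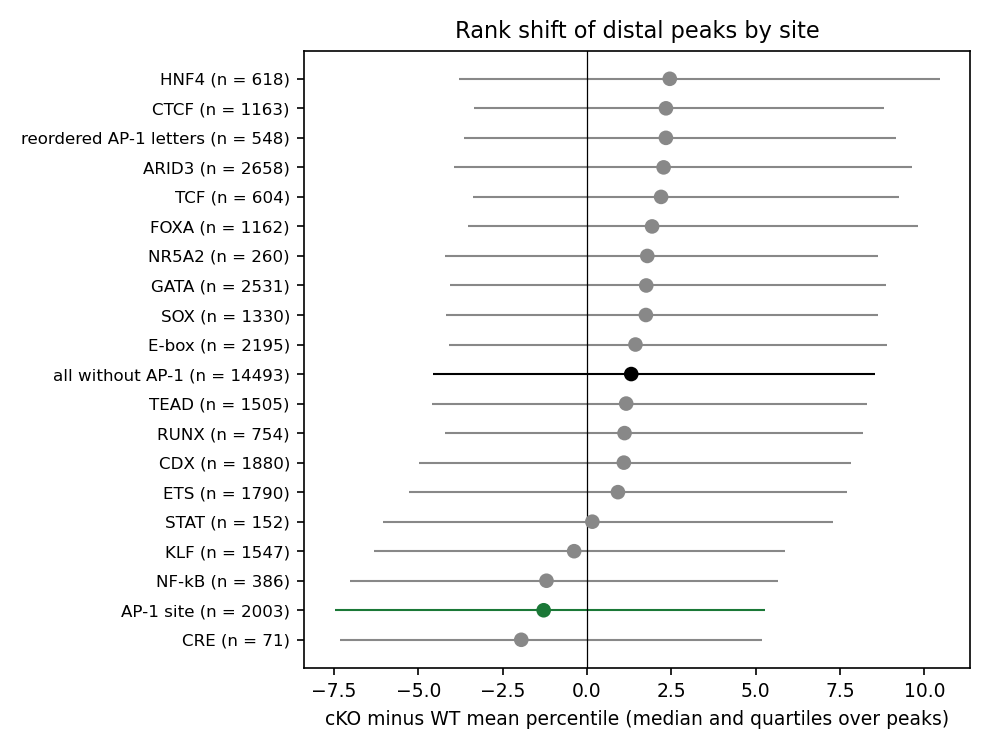
Median (point) and quartiles (line) over peaks of the cKO minus WT mean percentile (points, x axis) for distal peaks called in all 6 samples, by the motif in the summit window. AP-1 peaks (green) have a median of -1.28, all distal peaks without the site (black) 1.31, and the grey classes, which hold no AP-1 site, run from -1.95 (CRE, TGACGTCA) to 2.45 (HNF4).

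Among members whose genotypes did not overlap, the largest differences in normal score were spread over genes of unlike function. Of the 5 named that were higher in cKO, the peak near Gm16180 had percentiles of 2.72, 7.94 and 24.2 in WT 1, 2 and 3, with 36.5, 36.5 and 56.3 in cKO 1, 2 and 3. Its normal score differed by 1.17 (SE 0.321, limma adjusted p = 0.597). The window of this peak, printed above, held HNF4, ARID3 and TCF motifs beside the AP-1 site. The peak near Gm42453 had percentiles of 66.4, 79.3 and 88.2 in WT and 98.7, 89.25 and 99.0 in cKO, so that WT 3 and cKO 2 were close. The peak in an intron of Kremen1, the receptor of the WNT inhibitors of the Dickkopf family, had 28.1, 26.3 and 14.2 in WT and 65.2, 37.3 and 69.3 in cKO. The others lay nearest to the pseudogenes Gm7931 and Gm49780.

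Of the 5 named that were lower in cKO, the intronic Cdh1 peak with 2 sites had the largest difference, -1.30 in normal score (SE 0.312, limma adjusted p = 0.597). E-cadherin holds epithelial cells together at adherens junctions. The fold of the peak was 3.58, 3.38 and 3.01 in WT 1, 2 and 3, with 2.22, 2.50 and 1.70 in cKO 1, 2 and 3, all near the bottom of the shared peaks. The percentiles by fold were 8.04, 2.08 and 1.16 in WT and 0.257, 0.179 and 0.00467 in cKO. Ranked by q the same peak stood higher, at 45.1, 34.7 and 23.7 in WT and 3.59, 6.85 and 0.0482 in cKO, and the genotypes again did not overlap. The neighbouring Cdh1 members, 10.8 and 15.6 kb from the TSS, shifted by 1.36 and -6.50 points and their groups overlapped.

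The Casz1 peak had percentiles of 9.69, 44.97 and 15.3 in WT and 4.46, 1.28 and 3.34 in cKO, with WT 2 far above the rest. The peak nearest to the lincRNA gene AC132455.2, 71.5 kb from the TSS of the mRNA decay factor Zfp36l2, had 39.5, 49.6 and 39.6 in WT and 12.03, 13.0 and 10.2 in cKO. Its values lay close together within each genotype, with SDs of 5.79 and 1.42 points. The peak in an intron of Clic5, a gene of the microvillus cytoskeleton, held 2 sites and had 46.0, 50.1 and 64.0 in WT and 36.8, 3.63 and 33.0 in cKO. The peak near Ppp1r15b, a phosphatase subunit that counters the stress kinases of translation, had 35.5, 40.6 and 26.4 in WT and 18.3, 4.96 and 9.17 in cKO. These members were chosen for not overlapping by fold. Ranked by q, the groups also did not overlap in 5 of 5 higher and 5 of 5 lower members. As q is a second value of the same peaks in the same samples, this is no independent support. The adjusted p of limma was between 0.597 and 0.648 for all 10.

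**Figure D5:**
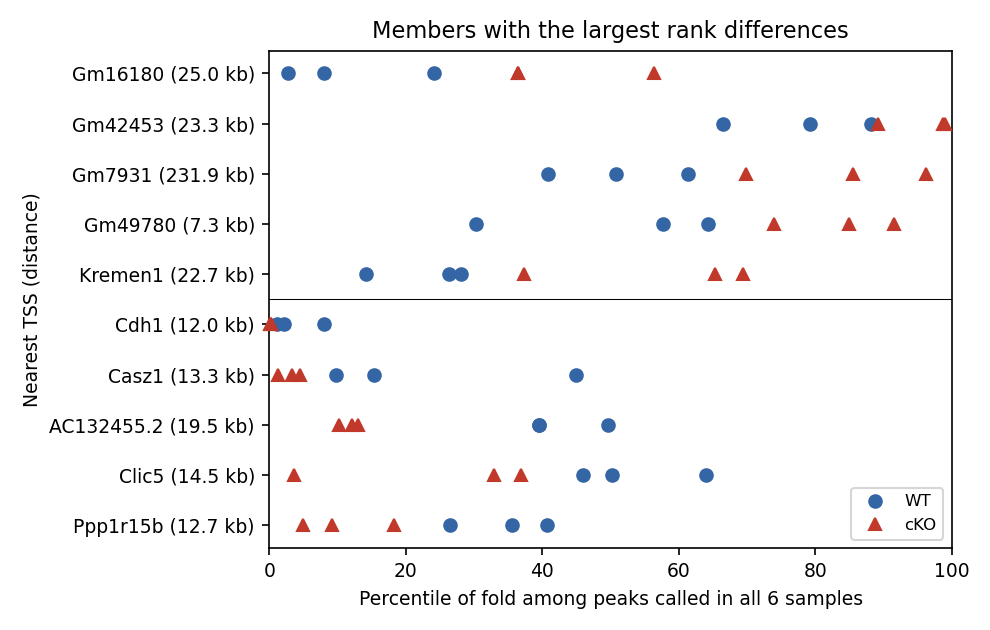
Percentile of fold among the peaks called in all 6 samples (x axis) for the 10 named members with the largest differences, by nearest TSS (y axis, distance in kb), 3 WT samples as blue circles and 3 cKO samples as red triangles. The upper 5 peaks were higher in cKO and the lower 5 lower, and the Cdh1 points lie at 8.04 or lower.

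The members that ranked highest in every list were chosen for their lowest percentile over all 6 samples, which leaves little room for a difference between genotypes. The Eif2ak3 peak had percentiles of 92.7, 94.95 and 94.9 in WT and 92.4, 94.7 and 96.4 in cKO. The Gm13624 peak had 98.4, 99.5 and 96.2 in WT and 98.0, 96.6 and 97.04 in cKO. Among the 10 strongest members were also peaks in or near Ripk3, the kinase of necroptosis, Epgn, a ligand of the EGF receptor, and Pde4d, a cyclic AMP phosphodiesterase. The Epgn peak was the only one of the 10 whose groups did not overlap, with 93.5, 93.9 and 88.8 in WT and 96.2, 98.4 and 97.1 in cKO (limma adjusted p = 0.678), but ranked by q they overlapped. It lay 11.4 kb from the TSS and held an ARID3, a TCF, a TEAD and an E-box motif. The others of the 10 lay nearest to Gm12034, Tmem220, 2310061N02Rik, Gm6741 and Sh3yl1.

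The repeat-borne peak near Twsg1, a modulator of BMP signalling, ranked in the middle of the lists in spite of its 6 sites. Its percentiles were 50.7, 58.0 and 46.9 in WT and 53.6, 56.9 and 49.1 in cKO. The other member with 6 sites, in an intron of Wnt5b, was called in 1 sample, WT 3, with a fold of 3.44. Over the members called in all 6 samples, however, the median percentile rose with the number of sites. It was 41.5, 44.6 and 43.9 in WT and 41.5, 41.2 and 43.8 in cKO with 1 site, 45.3, 52.1 and 50.2 against 43.7, 42.9 and 43.9 with 2 sites, and 61.2, 58.4 and 52.9 against 53.0, 53.6 and 52.1 in the 14 peaks with 3 or more. The peaks with 5 and 4 sites lay nearest to Gm49368 and Gm22791, and the last of the 5 named for their sites, nearest to Gm36953, held 3.

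The 4584 members had 3746 nearest genes, and 3107 of these genes had a single member. Rere, a nuclear corepressor gene, had the most, with 9 members among its 29 distal peaks. Tmprss2, which encodes a serine protease of epithelial surfaces, had 7 of 22. The genes with 5 members were Mbnl2, a splicing regulator, Arid5b, an ARID family gene like Arid3a, and the non-coding A430010J10Rik, CT486005.1 and 2610035D17Rik. 3110009E18Rik, Dst and Gm31497 had 4 each. Over the members called in all 6 samples, the median shift was -5.30 points at Rere (6 members) and -2.16 at Tmprss2 (4 members). The lists of named genes below take a peak as near a gene where its TSS was the nearest and lay within 50 kb, which was true of some gene for 4271 members (93.2%).

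Genes that belong to AP-1 signalling were among the nearest genes, though few. AP-1 subunit genes had 3 members among 27 distal peaks (11.1%), at Jdp2 and Fosb, beside an AP-1 share of 9.79% over all distal peaks. The Jdp2 peak had percentiles of 6.86, 6.42 and 15.1 in WT and 13.1, 3.35 and 20.05 in cKO. The nearer Fosb peak, 6.99 kb from the TSS of this Fos family gene, had 7.20, 18.6 and 15.9 in WT and 3.45, 15.6 and 5.13 in cKO. Both peaks ranked low by fold in all samples, and the groups overlapped. Ranked by q the Fosb peak stood higher, at 38.6, 58.4 and 58.1 in WT and 28.3, 52.8 and 32.4 in cKO, again with overlap. Genes of EGF receptor and MAP kinase signalling had 13 members among 88 distal peaks (14.8%). One of these lay 17.3 kb from Dusp5, a phosphatase that inactivates ERK, with 67.2, 72.9 and 77.1 in WT and 82.4, 79.0 and 94.7 in cKO, and the groups did not overlap (limma adjusted p = 0.678). Ranked by q the groups of this peak overlapped, at 57.3, 63.8 and 60.2 in WT and 63.7, 67.4 and 80.0 in cKO. The 4 members of this list called in all 6 samples had a median shift of 6.08, against -0.40 over its 22 other distal peaks. The largest shift was 31.9 at a member 31.8 kb from Braf, the gene of a kinase upstream of ERK, singled out after its values were seen, with 33.2, 21.7 and 30.9 in WT and 77.7, 18.9 and 84.9 in cKO, so that cKO 2 lay below all WT samples. A second Dusp5 member shifted by -2.22, and the member near Btc, a ligand of the EGF receptor, was called in 5 samples.

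Textbook AP-1 targets, which were taken from knowledge of other cells, had 9 members among 44 distal peaks (20.5%). A member 31.6 kb from Ccnd1, the gene of cyclin D1, had percentiles of 49.9, 66.0 and 73.1 in WT and 77.0, 73.0 and 60.6 in cKO. A second Ccnd1 member, 43.0 kb from the TSS, went the other way without overlap by fold. It had 31.7, 27.2 and 35.1 in WT and 14.7, 19.8 and 21.7 in cKO. A member near Vegfa, the gene of the vascular growth factor, held 2 sites and had 65.1, 60.7 and 60.9 in WT and 55.7, 50.7 and 48.8 in cKO, so that the groups did not overlap by fold, but did by q. Of the 6 members of this list called in all 6 samples, 3 lay all below in cKO and 0 all above, and 2 of the 3 also did so by q. The shares over all peaks were 6.09% and 5.87%. The limma adjusted p of the Vegfa peak was 0.752.

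Genes of regeneration and YAP signalling had 5 members among 47 distal peaks (10.6%). Il33, the gene of an alarm cytokine, had an intronic member with 68.5, 67.4 and 80.6 in WT and 53.4, 63.0 and 64.0 in cKO, which did not overlap by fold (limma adjusted p = 0.715). Ranked by q its groups overlapped, at 62.7, 67.3 and 74.96 in WT and 60.6, 63.4 and 66.4 in cKO. The members at Lats2, a kinase that restrains YAP, and Emp1 shifted by 4.02 and -7.06, and their groups overlapped. Crypt stem and proliferation genes had 7 members among 113 distal peaks (6.19%), the second lowest share of the lists. The Axin2 member was called in 4 samples, with folds of 4.65 and 5.78 in WT 2 and WT 3 and of 4.57 and 4.09 in cKO 1 and cKO 3. The Cdk6 member, at a kinase of the cell cycle, had percentiles between 4.22 and 15.2. The Lrig1 member named for its mean rank was called in 1 sample. Another Lrig1 member, in an intron 6.81 kb from the TSS, was called in all 6 samples and shifted by -4.08, with overlapping groups.

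Absorptive genes had 9 members among 105 distal peaks (8.57%) and secretory genes 2 among 41 (4.88%). The intronic member of Hnf4g, a nuclear receptor of enterocytes, had percentiles of 66.1, 79.3 and 71.3 in WT and 37.5, 59.6 and 84.7 in cKO, with cKO 3 above all WT samples. The Krt20 member, near a keratin of differentiated cells, shifted by -5.54 and its groups overlapped. The member near Ephx2 was called in 5 samples. The secretory members lay near Atoh1, which directs secretory fate, and Clca1, a goblet cell gene, and were called in 3 and 2 samples.

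Genes of epithelial adhesion and of the cytoskeleton had 19 members among 179 distal peaks (10.6%). Of the 12 called in all 6 samples, 10 were lower in cKO by mean percentile, against 53.8% of all peaks and 56.2% of all members. Their median shift was -5.06, against -1.42 over the 64 other distal peaks of the list and -0.64 over all peaks tested. The 12 were not 12 separate genes, since they included neighbouring peaks of Cdh1, among them the low-ranking one with 2 sites named above. All 3 cKO percentiles lay below all 3 WT percentiles in 4 of the 12 and above in 0, by fold and by q for these 4, against shares of 6.09% and 5.87% over all peaks by fold. The member near the tight junction gene Cldn4 shifted by 3.05, and its groups overlapped. Epithelial identity genes had 12 members among 60 distal peaks, of which 6 at Cdh1 and Krt19 also belong to the adhesion list. The member 19.6 kb from Krt19, a keratin of simple epithelia, had 32.8, 28.9 and 17.3 in WT and 9.20, 18.6 and 10.1 in cKO, with cKO 2 above WT 3, whereas by q all cKO values lay below all WT values.

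Marker genes of other cell types also had distal peaks nearby, with or without an AP-1 site. There were 17 near the 18 immune genes and 44 near the 17 stromal and endothelial genes. Immune genes had 2 members among 17 distal peaks (11.8%), near Ccl5 and Il7r, each called in 1 sample. Stromal and endothelial genes had 4 members among 44 distal peaks (9.09%), at Lyve1 and Pecam1. The Pecam1 member called in all 6 samples, 14.8 kb from the TSS of this endothelial adhesion gene, had percentiles of 9.13, 7.17 and 5.20 in WT and 24.9, 34.9 and 9.71 in cKO, all higher in cKO (limma adjusted p = 0.678), but overlapping when ranked by q. The 8 other distal peaks near stromal and endothelial genes that were called in all 6 samples had a median shift of 7.74. Promoter peaks of this list numbered 4, 6 and 7 of 17 in WT and 7, 5 and 6 in cKO, and 10 of the 17 had none in any sample. The part of such cells in the rank shifts of the members was not tested.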

How the data were processed

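The authors performed ATAC-seq with dissociated crypt cells of 3 WT and 3 Arid3a cKO mice. Reads were processed by the authors with nf-core/atacseq, aligned to GRCm38 with BWA and filtered, and narrow peaks were called per sample with MACS2 at an effective genome size of 2.6 Gb. No input control was described. The deposited lists give for each peak a fold ratio over local background, −log10 p and −log10 q values, a score and the summit offset. Fold measures a peak against its local background, so it is not a read count, and DESeq2, which the authors used on counts, had no input here. Scores were not analysed. No 2 of the 15 pairs of lists held identical values, and nothing stated beyond the labels says how the animals were related, so p-values measure only the spread between these samples.

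Lists were merged (overlap of 1 base, chromosomes 1 to 19), and the summit of the list with the highest within-list rank by fold was kept. TSS and gene parts came from GENCODE M21 and sequence from RefSeq GRCm38 patch 6. Coordinates are 1-based. Named members were those with the highest lowest rank, the largest non-overlapping limma differences (5 per direction, since no peak passed), peaks of 1 genotype only, the most sites, the highest mean rank near each gene list (3 each), the limits of the rule, and the genes with the most members. Timp1, Cyr61, Ctgf, Cldn2 and Flna were not found under these symbols on the chromosomes used, and some members of the gene lists are not reported here. Normal scores of fold ranks over peaks called in all 6 samples were fitted with limma 3.58.1 (trend, two-sided, Benjamini-Hochberg over all 32147 peaks) in R 4.3.3, after a test on simulated data. Other steps used Python 3.11.15, numpy 2.4.6, pandas 2.3.3, scipy 1.17.1 and matplotlib 3.10.9. The 95% Wilson intervals reflect counting error alone. Members, motifs and gene lists were chosen with earlier results of these data known.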

Additional observations from a re-analysis of the deposited data

How the results depend on the processing

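limma called 0 members at an adjusted p under 0.05 in every alternative fit tried, with log2 fold, percentiles, ranks by q, ranks over distal peaks, a correction for A+T content and mean rank, peaks called in at least 4 samples, −log10 q of at least 5, equalised list lengths, and each library left out. With the replicate number as a block, limma called 0 members and 2 of all peaks. The fit over peaks called in at least 4 samples also called 2 of all peaks. The same-numbered samples did not deviate together (correlations of -0.269, -0.00459 and 0.123), so the numbers were not taken as pairs. The difference in the lead of members over other distal peaks ranged from -5.55 to -3.03 over the alternatives and kept its direction in all of them. With each library left out in turn, members all above in cKO numbered 142 to 311, members all below 233 to 439, cKO-only members 14 to 96 and WT-only members 14 to 81, since fewer samples then have to agree. The shares over all peaks in the same sets were 8.51% to 16.1%, 8.79% to 23.6%, 0.600% to 2.596% and 0.185% to 0.961%. WT-only members numbered 6 (0.158%, against 0.0521% of all peaks) at −log10 q of at least 5 and 20 (0.566%, against 0.276%) with lists of equal length, and the cause was not tested. With at least 2 of 3 samples sufficing, cKO-only members numbered 122 and WT-only members 106. The number of members was 2607 with the site within 50 bp, 9200 with the site anywhere in the peak and 423 with A and T flanks required, by construction of the rule. Of 103 alternative values, 72 stayed within 1.5 times the main count or within the stated spread. Read totals were not analysed here, and 3 samples per genotype limit every comparison.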
